A study of Mus musculus with 6 samples.

Results

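Cytosolic ribosomal protein genes encode the protein part of the ribosome that translates nuclear-encoded mRNAs. Their members were taken from the mouse annotation by name, as protein-coding genes called Rpl or Rps with a number, Rplp0, Rplp1, Rplp2 and Rpsa, without the S6 kinases and without the mitochondrial ribosomal proteins. The annotation held 81 such genes, and 79 of them were among the 18810 genes with expression values, 32 of the small subunit and 47 of the large subunit. Rpl3l, a paralog of Rpl3 known from striated muscle, and Rpl10l, a paralog of Rpl10 known from testis, had no row and were not analysed here.

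Each cytosolic ribosome is built from a small subunit, which reads the mRNA, and a large subunit, which joins the amino acids, and most of its proteins are needed in a single copy. The genes lie apart in the genome, are transcribed in nearly every cell and are known for coordinated expression. Many of their mRNAs start with a run of pyrimidines, the terminal oligopyrimidine tract through which growth signalling controls their translation, and the genome also holds many processed pseudogenes, which are intronless copies of these mRNAs.

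The libraries came from C57BL/6 mouse embryos at embryonic day 15.5, 3 lacking the basic helix-loop-helix transcription factor Scleraxis (Scx-/-) and 3 wild-type littermates (Scx+/+). Each was made from the atrioventricular canal region of 1 heart, with the mitral, tricuspid and aortic valves and as little myocardium as dissection allowed, and no cells were sorted. In such bulk tissue, a lower share of a cell type and less RNA per cell cannot be told apart. The values are RPKM, the reads of a gene scaled by its exon length and by library depth. Library depths of 46429989 to 68571029 reads were inferred from these values and the exon lengths.

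Libraries are given throughout in the order of replicates 1 to 3. Scx itself, read over the whole gene, gave 18.6 to 82.9 RPKM among the null libraries and up to 58.3 RPKM among the wild type, so it does not check the labels. The study checked the null by exon 1 of Scx, and the table has no value for that exon alone. Defining markers of cardiomyocytes, erythroid cells and valve mesenchyme were present in all 6 libraries, with Tnnt2 between 3539 and 6694 RPKM and Postn between 161 and 387 RPKM. Scx+/+ replicate 2 stood apart, since its 10 most abundant entries, 4 of them copies of the small nuclear RNA 7SK, held 56.9% of its summed RPKM against 30.7% to 43.9% in the other libraries. Xist, the RNA of the inactive X chromosome, was at 21.7 RPKM in Scx-/- replicate 2 and 12.7 RPKM in Scx+/+ replicate 2 and at 0.0949 RPKM, the value that fills in for very few reads, in the others, which had the Y-linked Ddx3y at 47.3 to 56.5 RPKM. Replicate 2 of each genotype thus came from a female.

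RefSeq's promoter windows, which run from 250 bases before to 50 bases after a transcript start in the build GRCm38.p6, were found for 59 of the 79 genes by symbol. They are shown as a description, and a link between their letters and the RNA levels was not tested. A pyrimidine run on the sense strand, which means the letters CTTTCC, the letters CTTTTC or else the letters CTCTTT within 20 bases of a start, was present in 20 of the 59 genes (33.9%) and in 1415 of all 27025 genes of the table (5.24%). These spellings can overlap, and a gene with several starts or runs was counted once. The stretches below run from 20 bases before to 10 bases after the start, 5′ to 3′ on the strand of the gene, with those letters in capitals. Rpl4, Rps6, Rpl18, Rpl28, Rpl15 and Rps27 hold the run. In Rpl4 it lies before the start, so it would not be in an mRNA made from that start. The match of letters is thus no measure of the terminal oligopyrimidine tract. Rps23 and Rps3a, the most abundant members, have no run in the stretch shown, which is shorter than the 20 bases after the start that were counted.
Rpl4, chr9:64173367-64173396, plus strand: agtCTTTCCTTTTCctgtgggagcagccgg
Rps6, chr4:86857358-86857387, minus strand: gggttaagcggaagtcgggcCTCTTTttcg
Rpl18, chr7:45718051-45718080, plus strand: acgagtgcgtctcgcaggccgCTCTTTCCc
Rpl28, chr7:4792945-4792974, plus strand: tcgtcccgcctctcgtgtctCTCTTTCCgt
Rpl15, chr14:18270977-18271006, minus strand: ggattgtgggagaaagccttcttcCTTTCC
Rps27, chr3:90213639-90213668, minus strand: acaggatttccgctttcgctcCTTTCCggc
Rps23, chr13:90923102-90923131, plus strand: acggggccttcggctgggcggggcttcccg
Rps3a, chr3:86142659-86142688, minus strand: gattcttaaagccggaagggcgaaagagca

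The core of the ETS factor motif, CCGGAAG on either strand, was in the window of 25 of the 59 genes (42.4%) against 9.93% of all genes. GGGCGG, the GC box on either strand, was in 36 genes (61.0%) against 38.2%, and AAGATGGC, the core of the YY1 motif on either strand, in 5 genes (8.47%) against 3.19%. CCAAT on either strand was in 20 genes (33.9%) against 41.1%. CANNTG, the E-box letters that basic helix-loop-helix factors such as Scleraxis can bind and that read the same on both strands, was in 29 genes (49.2%) against 74.99%. TATAAA on the sense strand between 40 and 10 bases before the start was in 0 of 59 genes against 2.51%. These are matches of letters in 1 window a start, not sites. The ETS core is shown in capitals for 3 members, on the strand of the gene. It began 4 bases after the start of Rpl26, 8 bases after that of Rpl31 and 20 bases before that of Rpl38, in the last upstream of a pyrimidine run.
Rpl26, chr11:68901562-68901584, plus strand: ttacagaaCCGGAAGtcgcgtgt
Rpl31, chr1:39367851-39367873, plus strand: cccgtgacCCGGAAGttgtacgg
Rpl38, chr11:114668552-114668574, plus strand: ttaaccgtCCGGAAGcggaagcc

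The genes lie on 19 chromosomes, with 14 on chromosome 7, 7 on chromosome 11 and 4 on chromosome X. In the build mm9, on which the reads were counted, Rps23 lies at chr13:91062727-91064329 on the plus strand with 4 exons, Rpl4 at chr9:64021194-64026369 on the plus strand with 10 exons and Rpl21 at chr5:147644466-147648608 on the plus strand with 6 exons.

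Levels differed far more between members than between libraries. Of the 79 genes, 78 reached a mean of 1 RPKM over the 6 libraries. Their means had a median of 117 RPKM and ran from 4.68 RPKM for Rpl21 to 889 RPKM for Rps23, a 190-fold range. By level, 18 genes were at 300 RPKM or more, 26 between 100 and 300, 15 between 50 and 100, 17 between 10 and 50, and 3 under 10 RPKM. The order was nearly the same in every library, with a Spearman correlation over the 78 genes of 0.983 to 0.996 in the 15 pairs of libraries. This describes libraries that share gene lengths and sequences and is given without a test.

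Rps23, at the decoding centre of the small subunit, had the highest mean, with 1168, 894 and 760.3 RPKM in Scx-/- and 751, 985 and 776 RPKM in Scx+/+. Rps3a, a small subunit protein, followed with 946, 822 and 768 RPKM in Scx-/- and 671, 871 and 645 RPKM in Scx+/+. Rpl4, which lines the tunnel of the large subunit, was at 756, 617 and 592 RPKM in Scx-/- and 558, 518 and 469.8 RPKM in Scx+/+. The next members were Rplp1, a stalk protein, and Rpl32 of the large subunit, with means of 553 and 532 RPKM. Neighbours in this order were rarely apart. Only 2 of the 77 neighbouring pairs had 6 libraries each without overlap.

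At the low end, Rpl21 was at 4.44, 5.24 and 4.93 RPKM in Scx-/- and 4.53, 3.39 and 5.55 RPKM in Scx+/+. Rpl7a was at 9.40, 9.69 and 6.73 RPKM in Scx-/- and 7.44, 10.3 and 8.28 RPKM in Scx+/+. Both are large subunit proteins needed in every ribosome. Rps19, which is needed to mature the small subunit rRNA, had a mean of 16.4 RPKM and Rpl24 of the large subunit had 20.6 RPKM. Rpl39l, a paralog of Rpl39 known from testis, was at 1.10, 0.108 and 0.201 RPKM in Scx-/- and at the fill-in value of 0.0949 RPKM in all 3 Scx+/+ libraries, where its reads are known only to be few. It was the only member with fill-in values, and no fold change is given for it.

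**Figure D1:**
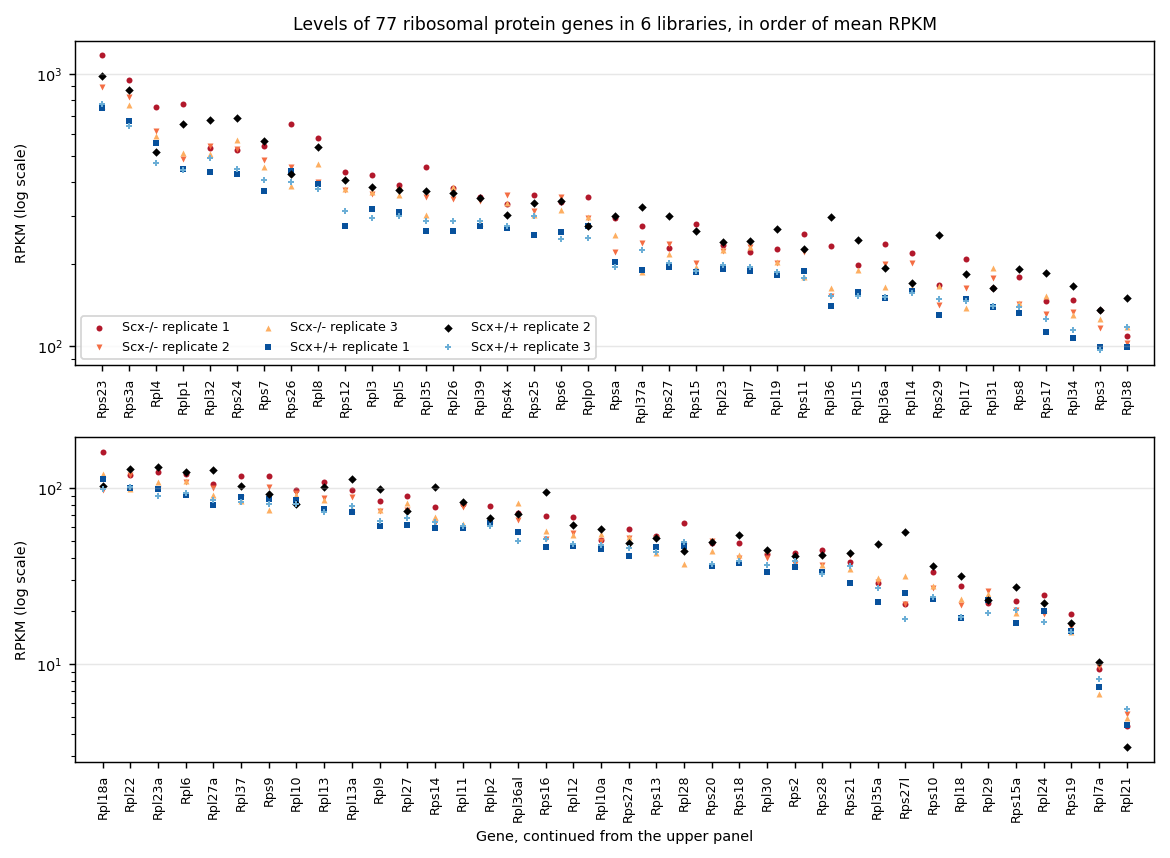
RPKM on a log scale for 77 ribosomal protein genes in order of their mean, 1 point per library, with the upper panel continued in the lower. From Rps23 at a mean of 889 RPKM to Rpl21 at 4.68 RPKM, the 6 libraries of a gene lie close together beside the range between genes, and Scx+/+ replicate 2 (black diamonds) is often the highest Scx+/+ point.

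Part of this range moves with the annotated exons. RPKM divides by the union of all annotated exons, which had a median of 1444 bases for the members, while 1 coding transcript a gene (the longest coding sequence, then the shortest transcript) had a median of 713 bases. When the same reads were divided by that transcript, the means ran from 16.8 RPKM for Rpl7a to 983 RPKM for Rps23, a 58.4-fold range with a median of 234 RPKM. Rps15a, a small subunit gene with 6262 bases of exon, went from 21.3 to 208 RPKM on that scale, and Rpl22 from 111 to 679 RPKM. Reads from other RNAs can also fall in these exons. The exons of 16 members overlap those of another gene that is no small nucleolar RNA, in 14 cases on the opposite strand, and the strand of counting is not given in the sources used here. In addition, 30 members contain 58 small nucleolar RNA genes, mostly in introns, and for 15 members some of those bases are annotated as exon.

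Many members have exact copies of their sequence elsewhere in the genome. Every 50-base window of the coding transcript was searched in mm9, and a median of 66.8% of a member's windows were found exactly at another place. The share was over 50% for 53 members and over 90% for 12 members, up to 99.7% for Rps27. It was 0 for the transcript taken for Rpl24, and for Rpl39l among others. Windows found at over 20 other places made up 33.0% of Rps2, 28.6% of Rpl21, 27.1% of Rpl7a and 11.2% of Rpl29, and the number of places at which an aligner drops a read is a setting not given in the sources used here. Rpl7a, Rpl21 and Rpl29 were also the lowest, the second lowest and the fourth lowest of the 78 genes per base of coding transcript, at 16.8, 17.7 and 25.96 RPKM. Rps2, with the largest share of such windows, was higher, at 73.7 RPKM on that scale. Rpl24 was the third lowest at 24.8 RPKM and none of its windows recurred, but the transcript taken for it had 4999 bases, the longest of all members. Both values rest on that transcript and cannot be set against those of the other members. The part of the copies in these levels was not tested.

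Pseudogenes of the same families had a higher summed RPKM than the genes. The annotation names 162 pseudogenes after a member, 143 of them had values, and 52 of those 143 are typed as protein-coding. Their summed RPKM was 1.71 to 1.95 times that of the 79 genes in the 6 libraries. In 39 of 51 families at least 1 pseudogene had a higher mean RPKM than its parent, and in 31 families more reads lay on the pseudogenes than on the parent gene. The highest were Rpl5-ps1 with a mean of 1383 RPKM, against 352 RPKM for Rpl5, and Rps24-ps3 with 1265 RPKM, against 532 RPKM for Rps24. These are values per exon length, and Rpl5-ps1 held only 0.882 to 0.936 reads for each read on the longer Rpl5. In the family of Rpl35a, 7.52 to 8.86 reads lay on the 6 pseudogenes for each read on the gene. The ratio ran over the libraries from 4.02 to 4.38 for Rpl9 and from 2.40 to 2.70 for Rpl3, and more widely for others, from 0.831 to 1.58 for Rpl21 and from 0.115 to 0.215 for Rpl29. Reads shared between a gene and its copies cannot be told apart here, so a member's value is that of the gene with the share of such reads that counting gave it.

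**Figure D2:**
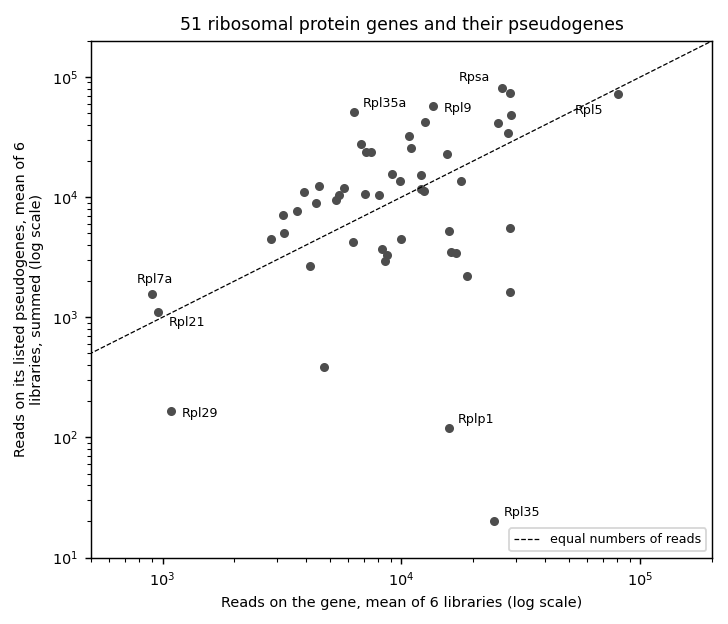
Reads on 51 ribosomal protein genes (horizontal) and on their listed pseudogenes summed (vertical), each the mean of 6 libraries recovered from RPKM, both on log scales. The 31 families above the dashed line have more reads on pseudogenes than on the gene, and Rpl35 and Rplp1 have almost none on theirs.

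The comparison of genotypes asked whether loss of Scx changed the RNA of the translation machinery in remodelling valves. Values were compared as log2(RPKM + 0.1) with limma, a linear model that pools the spread over genes, and an unadjusted p below 0.05 was the threshold for a call, with the adjusted p over all 18810 genes beside it. No member was called, 0 of 79 in either direction, against 3.89% of all genes (2.82% higher and 1.06% lower in Scx-/-). The smallest p of a member was 0.107, for Rps27a, and the smallest adjusted p was 0.967 (limma). The misses do not show equal levels. For 39 of the 79 genes the 95% interval of the difference lay within a 1.5-fold change either way, and for the others it did not.

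The median log2 fold change of the members, Scx-/- against Scx+/+, was 0.13, beside 0.10 over all genes. It was above 0 for 68 of 79 members (86.1%) and for 63.8% of all genes. Setting the median log2 ratio of every library to 0 removes that general shift. The members' median was then 0.02, and 41 of 79 were above 0. With trends on exon length and GC content removed instead, their median was -0.01, beside 0.01 over all genes fitted, and 37 of 79 were above 0. The direction thus depends on the scaling and on these trends. It also rests on single libraries, since the members' median was 0.03 without Scx-/- replicate 1 (50 above 0), 0.05 without Scx+/+ replicate 1 (51 above 0), 0.07 without Scx+/+ replicate 3 (56 above 0) and 0.25 without Scx+/+ replicate 2 (77 above 0). The small subunit had a median of 0.11 and the large subunit of 0.13. The summed RPKM of the small subunit was 0.830 to 0.863 times that of the large subunit in every library.

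**Figure D3:**
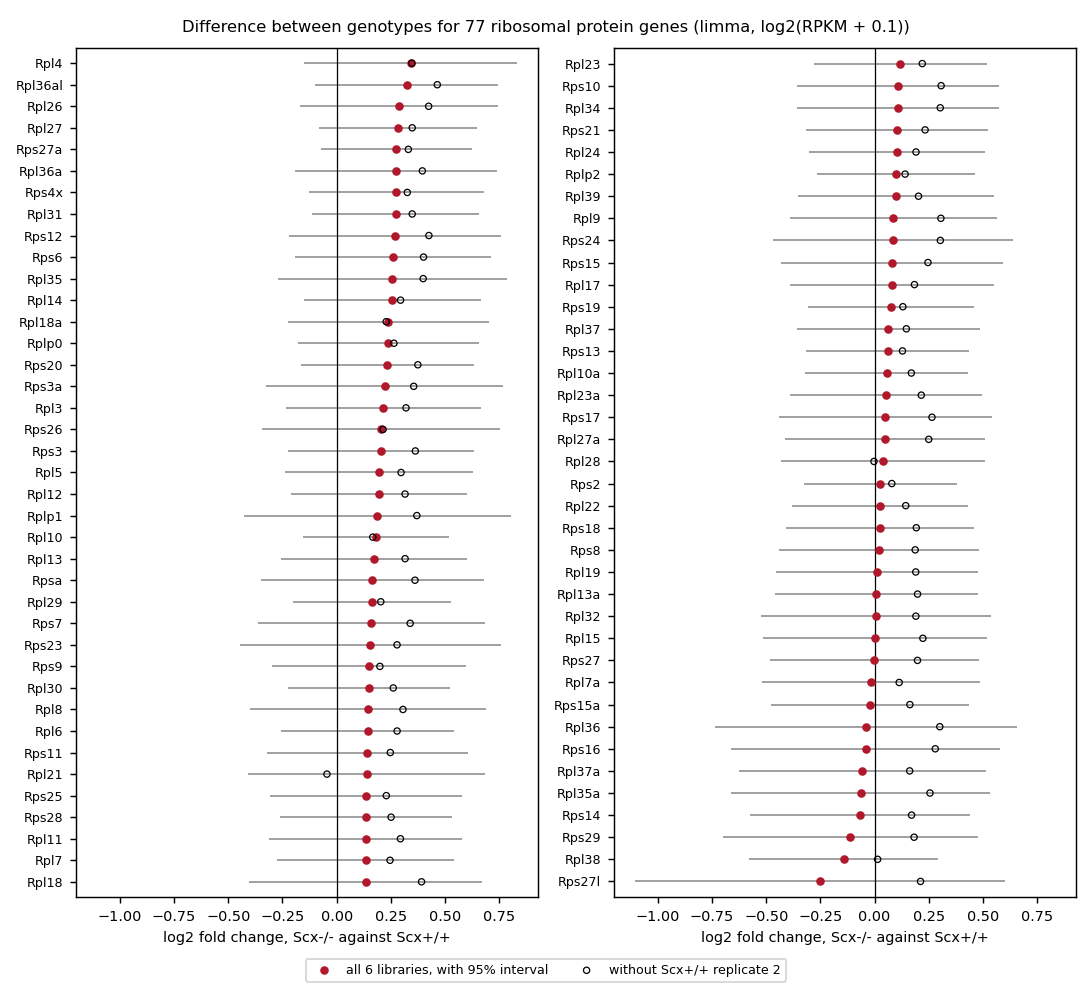
Log2 fold change of Scx-/- against Scx+/+ for 77 ribosomal protein genes, ordered by size, with 95% intervals from limma (filled points) and without Scx+/+ replicate 2 (open circles). Every interval from all libraries includes 0, and 66 of the 77 filled points lie above 0 as deposited, while with library medians set to 0 the members' median is 0.02.

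Of the members, 8 had their lowest null library above their highest wild-type library, and 7.19% of all genes were too. In the other direction there were 0 members, against 2.31% of all genes. The 8 are Rpl4, Rps4x, Rplp0, Rpl31, Rpl10, Rpl27, Rps27a and Rpl39l, singled out after their values were seen. For Rpl39l all 3 Scx+/+ values are the fill-in value, so its lack of overlap is no comparison of measured levels. Rpl4 had the largest difference of a member among those over 1 RPKM, with means of 655 ± 88.3 RPKM for the null and 515 ± 44.0 RPKM for the wild type (SD, n = 3 each). Its log2 fold change was 0.34, with a standard error of 0.22, an interval of -0.15 to 0.83 and a limma p of 0.151.

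Rps27a, which is made as a fusion with ubiquitin, was at 58.6, 51.9 and 52.7 RPKM in Scx-/- and 41.0, 48.4 and 45.5 RPKM in Scx+/+. Its log2 fold change of 0.28 had a standard error of 0.15 and an interval of -0.07 to 0.63. Rpl10, an X-linked gene whose protein joins the large subunit last, was at 97.2, 93.4 and 91.0 RPKM in Scx-/- and 85.8, 81.2 and 81.4 RPKM in Scx+/+. The difference of 0.18 on the log2 scale was small, yet the libraries of each genotype lay close together. Rps4x, an X-linked small subunit gene, was at 332, 359.8 and 337 RPKM in Scx-/- and 272, 304 and 275 RPKM in Scx+/+. One-way analysis of variance of each gene on its own, the kind of test the study used, called these 3 genes at an unadjusted p below 0.05 on the log2 values, with 3.42% of all genes called higher, and their smallest adjusted p was 0.948.

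**Figure D4:**
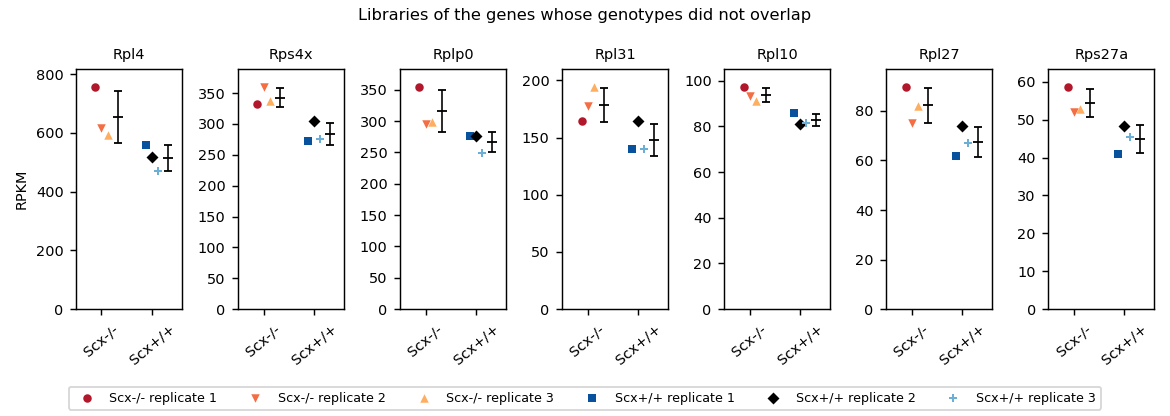
RPKM by library for 7 ribosomal protein genes whose Scx-/- libraries all lie above their Scx+/+ libraries, with the mean and SD of each genotype (n = 3) in black and each axis starting at 0. The gaps are narrow, as for Rplp0 with a lowest Scx-/- value of 296 RPKM and a highest Scx+/+ value of 277 RPKM, and Rpl39l, at the fill-in value in Scx+/+, is left out.

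Rpl36al, a retrogene-like paralog of Rpl36a with a single exon, had the next difference by size, 0.32 with a standard error of 0.19, from 72.0, 65.5 and 82.0 RPKM in Scx-/- against 55.9, 70.8 and 49.8 RPKM in Scx+/+. Rpl26, at the tunnel exit, followed with 0.29, from 380.3, 348 and 384 RPKM in Scx-/- and 265, 366 and 288 RPKM in Scx+/+. For both genes Scx+/+ replicate 2 lay among the null libraries, unlike for Rpl27, a large subunit protein. Rpl27 was at 89.6, 75.2 and 81.8 RPKM in Scx-/- and 61.8, 73.9 and 67.1 RPKM in Scx+/+, and its log2 fold change of 0.28 had an interval of -0.08 to 0.65. At the other end, Rps27l, a paralog of Rps27 known as a p53 target, was at 22.02, 21.8 and 31.5 RPKM in Scx-/- and 25.4, 56.3 and 17.9 RPKM in Scx+/+. Its log2 fold change of -0.25 (interval -1.11 to 0.60) turned to 0.21 without Scx+/+ replicate 2. Rpl38 had -0.14 and Rps29 -0.11, and these also turned to 0.01 and 0.18 without that library.

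Scx+/+ replicate 2 stood high for the members as a group. It was the highest Scx+/+ library for 71 of 79 members (89.9%) and for 35.7% of all genes. The share was 40.9% of genes whose mean reached 1 RPKM, 92.2% of mitochondrial ribosomal protein genes and 74.8% of the pseudogenes. The 3 Scx-/- libraries all lay above Scx+/+ replicates 1 and 3 for 52 of 79 members (65.8%), against 17.7% of all genes. This held for 21.7% of genes whose mean reached 1 RPKM, 48.1% of mitochondrial ribosomal protein genes and 53.8% of the pseudogenes. As a median over members, the log2 difference from a gene's own mean was 0.19, 0.01 and -0.02 for the null libraries, beside -0.22, 0.17 and -0.18 for the wild type. Of the 79 members, 72, 46 and 34 were above their own mean in the null libraries, and 0, 66 and 3 in the wild type. Scx-/- replicate 1 was the highest library for 35 members and Scx+/+ replicate 2 for 36, and of all genes whose mean reached 1 RPKM they were the highest for 30.1% and 20.5%. Within a genotype the members' log2 values had a median SD of 0.23, less than the 0.31 of all genes whose mean reached 1 RPKM.

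With library medians set to 0, replicates 1 and 2 of the wild type stayed apart. Scx+/+ replicate 3 and Scx-/- replicates 1 and 3 came closer to 0, and Scx-/- replicate 2 stayed near 0. The members' median differences were then 0.04, -0.02 and -0.00 in Scx-/- and -0.24, 0.22 and -0.05 in Scx+/+. The 2 farthest libraries were both wild type, on opposite sides of the 3 Scx-/- libraries. Cardiomyocyte markers summed to 18224 RPKM in Scx+/+ replicate 2, the highest of all libraries, and to 12851 and 10700 RPKM in Scx+/+ replicates 1 and 3, and over the whole list of 8 genes to 11450 to 16317 RPKM in Scx-/-. Of the 8 markers, Ryr2 was called lower in Scx-/- and none higher. Erythroid markers summed to 9504 to 14141 RPKM in Scx-/- and 7753 to 13928 RPKM in Scx+/+, with 0 of 7 called. All 7 had log2 fold changes above 0, from 0.18 to 0.69 with a median of 0.25. The 9 valve mesenchyme markers had sums of 437 to 575 RPKM in Scx-/- and 409 to 457 RPKM in Scx+/+, with 0 called. Their log2 fold changes ran from -0.50 to 0.91 with a median of -0.01, and only 4 of the 9 were above 0. The 5 epicardium markers all had log2 fold changes above 0, with a median of 0.32 and sums of 25.1 to 33.96 RPKM in Scx-/- and 18.6 to 26.6 RPKM in Scx+/+, and 1 of them, Tcf21, was called higher, though not with library medians set to 0. The 4 smooth muscle markers were also all above 0, with a median of 0.38, sums of 475 to 669 RPKM in Scx-/- and 444 to 539 RPKM in Scx+/+, and 0 called. For endothelial markers the median was -0.06 over 6 genes and for macrophage markers 0.29 over 6 genes, with sums of 114 to 134 and 30.7 to 51.5 RPKM in Scx-/- and 113.98 to 129.6 and 39.4 to 43.1 RPKM in Scx+/+, and 0 called in either list. Over all genes, 2.82% were called higher and 1.06% lower. With library medians set to 0, 2 of the 6 endothelial markers were called, and their median was -0.16. In that setting 1 of the 8 cardiomyocyte markers and 0 of the other markers were called, against 646 of all 18810 genes. The part of cell composition, sex or 7SK content in the members' levels was not tested.

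Without Scx+/+ replicate 2, which leaves 2 wild-type libraries, the members' median log2 fold change was 0.25, 77 of 79 were above 0 and 11 were called higher, against 5.75% of all genes. The 11, named after their values were seen, are Rpl18, Rpl26, Rpl27, Rpl31, Rpl36al, Rps3, Rps4x, Rps6, Rps12, Rps20 and Rps27a. Rps6, the target of the S6 kinases, was at 339, 354 and 316 RPKM in Scx-/- and 262, 340.0 and 247 RPKM in Scx+/+, and its log2 fold change went from 0.26 to 0.40 when replicate 2 was left out. The smallest adjusted p of a member was then 0.598 (limma). With library medians also set to 0, the median was 0.14, 75 of 79 were above 0 and 0 were called, against 3.01% of all genes called higher.

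**Figure D5:**
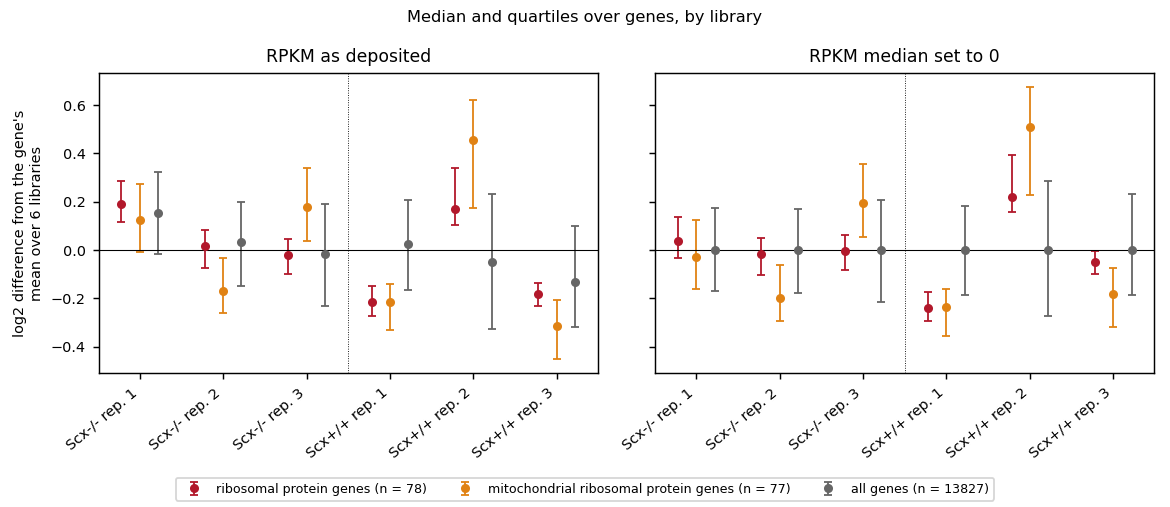
Median (points) and quartiles (bars) over genes of the log2 difference from each gene's mean over 6 libraries, for cytosolic ribosomal protein genes, mitochondrial ribosomal protein genes and all genes whose mean reached 1 RPKM, as deposited (left) and with library medians set to 0 (right). The cytosolic genes sit at -0.22 and -0.18 in Scx+/+ replicates 1 and 3 and at 0.17 in replicate 2 as deposited, and the mitochondrial genes reach 0.46 in replicate 2.

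By role, no list of members held a called gene. The stalk that recruits translation factors (Rplp0, Rplp1, Rplp2 and Rpl12) had 0 of 4 called and log2 fold changes of 0.10 to 0.24, with Rplp1 at 778, 486 and 510.2 RPKM in Scx-/- and 449, 653 and 445 RPKM in Scx+/+. Its Scx-/- replicate 1 and Scx+/+ replicate 2 were high and the genotypes overlapped. Rplp0, the base of the stalk, was at 354, 296 and 299 RPKM in Scx-/- and 277, 276 and 249 RPKM in Scx+/+, without overlap, and Scx+/+ replicate 2 was not apart for it. Rpl5 and Rpl11, which carry the 5S rRNA into the ribosome and bind Mdm2 when free, had 0.20 and 0.13. Rpl5 was at 391, 375 and 359 RPKM in Scx-/- and 310.4, 376 and 299.5 RPKM in Scx+/+, so that only Scx+/+ replicate 2 reached the null libraries.

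Around the exit of the peptide tunnel (Rpl17, Rpl19, Rpl23a, Rpl26, Rpl31, Rpl35 and Rpl39), 0 of 7 were called, with log2 fold changes of 0.01 for Rpl19 to 0.29 for Rpl26. Rpl31 was at 164, 178 and 194 RPKM in Scx-/- and 139.8, 164 and 140.2 RPKM in Scx+/+, and its lowest null and highest wild-type libraries nearly met. Along the mRNA path of the small subunit (Rps2, Rps3, Rps14, Rps23, Rps26, Rps28 and Rpsa), 0 of these 7 were called, with log2 fold changes from -0.07 for Rps14 to 0.20 for Rps26. Rps26, which contacts mRNA near the exit of that path, was at 654, 453 and 387 RPKM in Scx-/- and 438, 427 and 400.1 RPKM in Scx+/+. Scx-/- replicate 1 stood above the other 5 libraries.

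Mice with mutations in some of these genes have skeletal or pigment defects. Of the 5 listed for that (Rpl24, Rpl38, Rps7, Rps19 and Rps20), 0 were called. Rpl38, known from the tail-short mouse and its axial skeleton, was at 109, 103 and 117 RPKM in Scx-/- and 99.4, 149.9 and 118 RPKM in Scx+/+. Its groups overlapped and Scx+/+ replicate 2 was the highest. Of 9 genes mutated in Diamond-Blackfan anaemia, a failure of red cell production, 0 were called, with log2 fold changes of -0.06 for Rpl35a to 0.20 for Rps26. Rpl35a was at 28.7, 29.2 and 30.9 RPKM in Scx-/- and 22.7, 48.3 and 27.1 RPKM in Scx+/+.

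Paralog pairs differed in level. Rpl36a, on the X chromosome, had a mean of 183 RPKM and a log2 fold change of 0.27, and Rpl36al had 65.98 RPKM and 0.32. Rps27 was at 229, 236 and 217 RPKM in Scx-/- and 195, 299.5 and 202 RPKM in Scx+/+, and its log2 fold change of -0.00 lay in an interval of -0.48 to 0.48. The difference between paralogs was not tested. Rpl39 was at 353, 342 and 284 RPKM in Scx-/- and 277, 351 and 288 RPKM in Scx+/+, far above Rpl39l. Rpl3 and Rpl10, whose paralogs had no row, had means of 359 and 88.3 RPKM.

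Several members serve as reference genes in quantitative PCR, where a stable level is wanted. The 7 listed (Rpl4, Rpl13a, Rpl19, Rpl32, Rplp0, Rps18 and Rps29) had log2 fold changes of -0.11 to 0.34 and 0 were called. Rpl32 was at 533, 543 and 509.7 RPKM in Scx-/- and 435, 679 and 493 RPKM in Scx+/+, and its log2 fold change was 0.01. Rpl13a and Rps18 had 0.01 and 0.02. Their null libraries lay within the range of the wild-type libraries for Rpl32, and the wild-type libraries were the more spread. Among 12 other reference genes 1 was called, against 3.89% of all genes. It was B2m, the light chain of class I molecules, with 119, 111 and 115 RPKM in Scx-/- against 83.2, 103 and 69.2 RPKM in Scx+/+. Its log2 fold change was 0.45, with an adjusted p of 0.967 (limma), and it was not called once library medians were set to 0.

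Outside the members, the mitochondrial ribosome gives the nearest comparison. Its 77 genes had a median log2 fold change of 0.11, and 3 were called higher and 0 lower, against 2.82% and 1.06% of all genes. Mrps17, a small subunit protein, was at 15.5, 15.9 and 15.3 RPKM in Scx-/- and 10.5, 13.9 and 8.73 RPKM in Scx+/+. Mrpl49 and Mrpl9 were the others, with log2 fold changes of 0.51 and 0.50 and an adjusted p of 0.967 for each of the 3 genes (limma). With library medians set to 0, 0 of the 77 were called, against 646 of all 18810 genes, and the median was -0.00. Without Scx+/+ replicate 2, 16 were called higher with a median of 0.33, against 5.75% of all genes called higher. With medians also set to 0, 8 were called higher, against 3.01% of all genes, and 1 lower, against 883 of all 18810 genes. The cytosolic genes had 11 and 0 called higher in these settings. The difference between the gene groups was not tested. Scx+/+ replicate 2 was the highest Scx+/+ library for 92.2% of them. They also split the null libraries, at -0.17 in Scx-/- replicate 2 and 0.18 in Scx-/- replicate 3, where the cytosolic genes were at 0.01 and -0.02.

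Among ribosomal proteins or associated factors that the naming leaves out, 0 of the 4 described here (Fau, Gnb2l1, Rpl22l1 and Rpl7l1) were called. Of 40 ribosome assembly genes, 4 were called higher and 0 lower, against 2.82% and 1.06% of all genes, and the median was 0.14. Nop56, a core protein of box C/D small nucleolar ribonucleoproteins, was at 24.1, 19.9 and 21.2 RPKM in Scx-/- and 16.6, 15.0 and 13.1 RPKM in Scx+/+, a log2 fold change of 0.54 with a standard error of 0.17 and an adjusted p of 0.967 (limma). The genotypes did not overlap for it. Gnl3, a nucleolar GTPase also called nucleostemin, had 0.48, Wdr43 of the small subunit processome 0.43 and Gnl2, another nucleolar GTPase, 0.40. With library medians set to 0, of the 40 only Nop56 was called, against 646 of all 18810 genes.

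Translation factors had 1 gene called higher and 1 lower of 38, against 2.82% and 1.06% of all genes, with a median log2 fold change of 0.10. Eif1a, which stabilises scanning, was at 25.2, 27.3 and 27.6 RPKM in Scx-/- and 21.8, 18.0 and 17.7 RPKM in Scx+/+. Eif1, which guards start codon choice, was at 24.8, 20.2 and 23.2 RPKM in Scx-/- and 29.0, 32.3 and 37.1 RPKM in Scx+/+. Their log2 fold changes were 0.48 and -0.52, each with an adjusted p of 0.967 (limma). With library medians set to 0 both kept these directions and were called, with Eif3f and Pabpc1 lower beside them. That made 4 of 38 translation factors, against 646 of all 18810 genes. Of 19 genes around the TOR kinase, which controls translation of mRNAs with a terminal oligopyrimidine tract, 0 were called and the median was 0.07. Larp1, which binds that tract, averaged 3.78 ± 0.529 RPKM for the null and 5.11 ± 1.13 RPKM for the wild type (SD, n = 3 each), and the groups overlapped. Of 16 genes that respond to p53, which free ribosomal proteins can stabilise, 1 was called higher, against 2.82% of all genes, and the median was 0.15. The called gene was the death receptor Fas, at a mean of 1.39 RPKM, which was not called once library medians were set to 0.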

How the data were processed

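RNA of 3 Scx-/- and 3 Scx+/+ libraries was sequenced, and the deposited values are RPKM made by the authors with TopHat 1.4.1 on mm9 and easyRNASeq 1.6 over the exons of Ensembl 66. The authors kept genes with enough reads in at least 1 library and replaced very low values by a common one, found here as 0.0949 RPKM. Read length, strand and the handling of reads that match several places are not given in the sources used here.

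Members were found by symbol in GENCODE vM1, and the members and gene lists were chosen with earlier results of these data known. Groups came from the labels, with 1 library a heart, so the p-values rest on the spread between hearts, which limma pools over genes. Genotypes were compared as log2(RPKM + 0.1) with limma 3.58.1 in R 4.3.3, with a variance trend on intensity, two-sided, and p-values were adjusted over 18810 genes by the Benjamini-Hochberg method. A fold change on this scale understates that of low genes. The script was tested on simulated data. For single genes an exact permutation test of 3 against 3 cannot go below 0.1 and was not used. Reads were recovered from RPKM and exon length, with 98.45% to 98.57% of the values whole within 0.1 read. The text names the 5 members with the highest and the 5 with the lowest means, the 5 with the largest differences, the paralogs and their partners and genes of the role lists, and outside the members up to 5 called genes a list. Alternatives were the pseudocount, a filter on low values, scaling, exon length and GC trends, analysis of variance, each library left out and a replicate block. A few genes that entered the fits and counts are not reported here by name, and they are left out of the plots by gene.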

Additional observations from a re-analysis of the deposited data

How the results depend on the processing

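No ribosomal protein gene was called lower in Scx-/- in any setting tried, and with all libraries none was called higher with another pseudocount, filter or scaling. One-way analysis of variance called 3 on RPKM and 3 on log2 values. Leaving out 1 library at a time gave 0 to 11 called higher, and the upper end came without Scx+/+ replicate 2, where the median log2 fold change of the members was 0.25 in a range of 0.03 to 0.25. Without Scx-/- replicate 3, 1 was called, Rpl14. Without replicate 2 of either genotype, added after seeing the data, 12 were called, 9 of them among those 11, and 0 with library medians also set to 0. Over all genes, 731 were called, 539 to 1549 with 1 library left out, 1704 without replicate 2 of either genotype, and with medians set to 0 also 1450 without Scx+/+ replicate 2 and 1601 without either. Whether replicate numbers pair the hearts is not known. Deviations of same-numbered libraries correlated at 0.092, -0.220 and -0.188, and not every library correlated best with its own number. Deviations from a mean of 3 libraries constrain one another, so these values cannot decide it. With the replicate block 0 members and 573 of all genes were called, and 483 with medians set to 0 as well. The causes were not tested. Depth limits the values of Rpl39l, which had few reads in any library.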
